A study of Mus musculus with 5 samples.

Results

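The genes described here are 37 markers of the cells of blood vessel walls, read from a count table of 21289 genes by exact match of the gene symbol, and all 37 were found. Of these, 24 mark endothelial cells and 13 mark mural cells, the pericytes and smooth muscle cells that wrap the endothelium. The libraries were made from CD45+CD64+ cells sorted from hearts of male C57BL/6JGpt mice, wild type by label, 7 days after myocardial infarction. In 3 samples the mice had been given curcumol, a plant sesquiterpene, at 30 mg/kg by gavage once a day, and 2 samples came from infarcted mice without curcumol. The sources name no vehicle, sham operation or age, and do not say whether a sample is 1 animal or a pool.

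Endothelial cells line every vessel and the heart is dense in capillaries, so they are among the most numerous cells of that organ. They are held together by VE-cadherin and PECAM-1, respond to VEGF through its receptors and to angiopoietins through TIE2, and keep their identity under ETS and SOX transcription factors. Pericytes sit on capillaries under PDGF-B and Notch signals, while smooth muscle cells around larger vessels carry a contractile apparatus. Both lie outside the leukocyte gate, which selects leukocytes by CD45 and, among them, monocytes and macrophages by the Fc receptor CD64. Several of the genes are nevertheless known in other cells: monocytes and macrophages can express Eng, Fabp4, Rgcc, Pecam1 and Flt1, platelets carry Pecam1 and Vwf, and myofibroblasts express Acta2, Tagln, Cnn1 and Pdgfrb.

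Vessel wall transcripts were present at low levels in the curcumol libraries and were mostly without a count in the untreated ones. Of the 24 endothelial genes, all 24 had counts in each of the 3 curcumol libraries, against 8 in either untreated library. Of the 13 mural genes, 12, 12 and 11 had counts in curcumol replicates 1, 2 and 3, against 4 in untreated replicate 1 and 1 in untreated replicate 2. Taken over both untreated libraries, 14 endothelial and 9 mural genes had no count, 4 and 3 had counts in 1 library, and 6 and 1 had counts in both. Levels are given below as CPM, that is, counts divided by the TMM-scaled library size in edgeR. A gene without counts was set at a floor of 3 counts, which is 0.0760 CPM in untreated replicate 1 and 0.0767 CPM in replicate 2. This floor, and every lower bound or "at least" fold set against it below, covers counting error only. A 0 did not always go with a low count in the other untreated library: 7 vessel genes had 0 in 1 and 100 to 336 counts in the other. In bulk RNA, fewer cells of a type and less RNA per cell cannot be told apart.

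**Figure D1:**
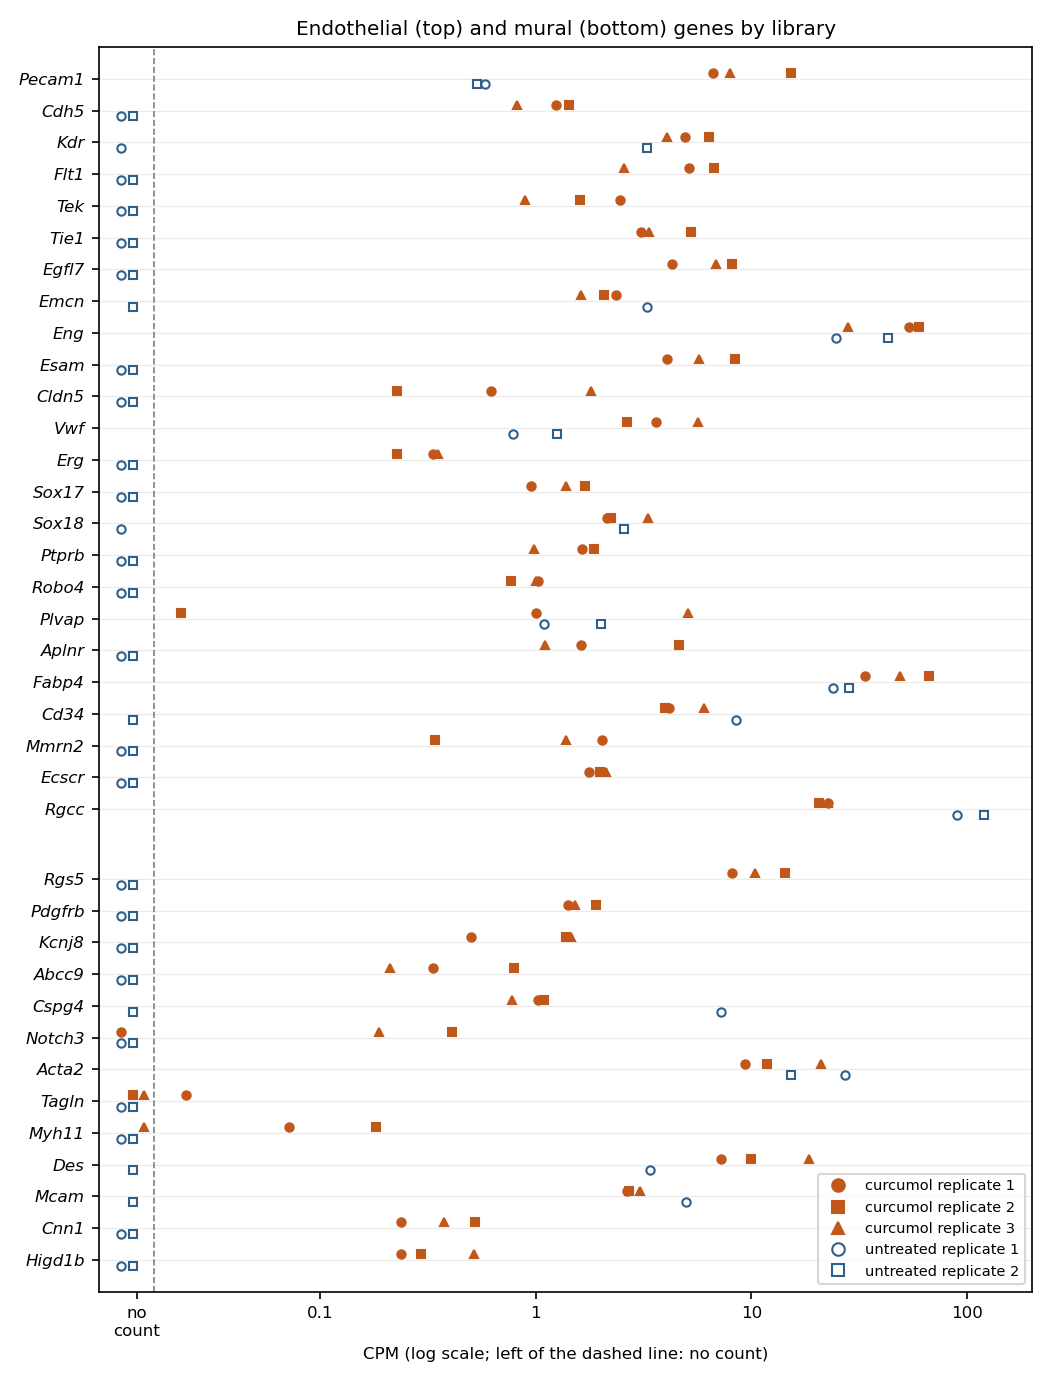
CPM on a log axis of each of the 24 endothelial and 13 mural genes in every library. Filled orange symbols are the 3 curcumol libraries and open blue symbols the 2 untreated libraries, with libraries without a count drawn left of the dashed line. Most untreated symbols lie in the no-count strip, while Rgcc has its untreated symbols at 89.4 and 120 CPM, right of the curcumol ones.

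The untreated libraries held fewer genes of any kind. Library totals lay between 39768705 and 43315822 counts, but 17188, 17078 and 18501 genes had a count in the curcumol libraries, against 12243 and 12915 in the untreated libraries. Low counts were also rarer there: 16.6% to 21.1% of the detected genes had 1 to 9 counts in the curcumol libraries, against 5.79% and 7.50% in the untreated libraries. No vessel gene had fewer than 21 counts in an untreated library that detected it, and the 7 with counts in 1 untreated library had 100 to 336 counts there, with a median of 134. Among all 3130 genes with counts in 1 untreated library, the median was 30 counts.

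Genes of low level were missing most often, so the vessel genes were set beside all genes of like level. Among all genes that averaged 0.5 to 1 CPM over the 5 libraries, 27.5% had no count in either untreated library, beside 9 of 9 vessel genes. At 1 to 3 CPM the share was 14.2% for all genes, beside 4 of 10. At 3 to 10 CPM it was 2.09%, beside 3 of 7, which were Rgs5, Egfl7 and Esam. Genes without a count in any curcumol library made up 0.712% at 0.5 to 1 CPM and 0% above. The list was chosen with results of these data known, so these shares are a description, and the part of the smaller number of genes in the untreated libraries in the results below was not tested.

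**Figure D2:**
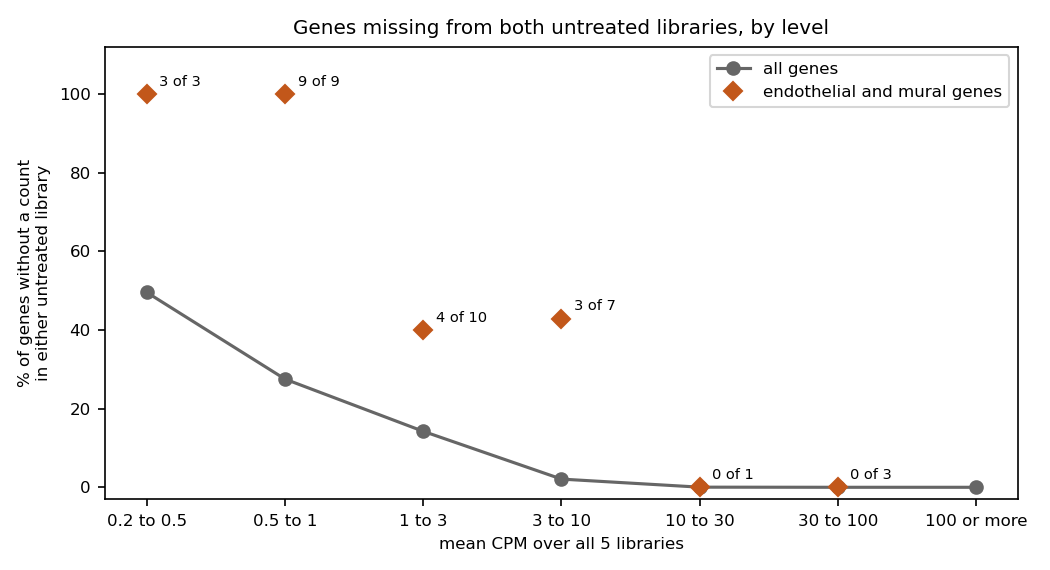
Percent of genes without a count in either untreated library, on a linear axis, by mean CPM over all 5 libraries. Grey points are all genes and orange diamonds the vessel genes, each with its number of genes. At 3 to 10 CPM 3 of 7 vessel genes were missing, beside 2.09% of all genes.

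Curcumol was compared with no treatment in a fit over all 14508 genes that passed a filter on low counts. Of the 37 vessel genes 34 passed this filter, and Notch3, Tagln and Myh11 did not. The 20 tested genes without an untreated count passed it through their curcumol libraries alone, so the number of positive differences among them supports nothing. At an adjusted p below 0.05, Rgs5 rose and Rgcc fell, 2 of 34. Over all genes tested the share was 0.207%, or 30 of 14508, with 0.0689% higher and 0.138% lower. Rgs5 is among the 20 genes without an untreated count, so its call beside that share supports nothing. At an unadjusted p below 0.05, 22 vessel genes were higher and 1 was lower, beside 18.1% and 6.51% of all genes. In 25 vessel genes every curcumol library lay above every untreated one and in 1 below, beside 29.5% and 14.9% of all genes. Both higher counts, 22 and 25, include all 20 genes without an untreated count, so they support nothing for those 20. The others were Pecam1 and Fabp4 by p, and Pecam1, Kdr, Vwf, Fabp4 and Des by lack of overlap. Genes without an untreated count made up 10.9% of all tested. The median log2 difference was 8.24 over the 24 endothelial genes and 6.93 over the 10 tested mural genes, or 3.77 and 2.43 with genes lacking untreated counts set at their lower bound, beside 0.15 over all genes.

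The number of calls depended on the method and on single libraries. DESeq2 called 18 vessel genes higher and 1 lower of 31 that it gave an adjusted p. Over all 14508 genes, with or without an adjusted p, it called 16.5% (11.8% higher and 4.74% lower). With limma-voom 21 were higher and 1 lower (11.4%, 9.72% and 1.73%). With edgeR but no filter on low counts 7 were higher and 1 lower (2.03%, 1.52% and 0.502%). Apart from Pecam1 and, with DESeq2, Vwf, every gene called higher had no untreated count. These numbers therefore support nothing for those genes. Neither Rgs5 nor Rgcc passed without any of the 3 curcumol libraries in turn (adjusted p from 0.0954 to 0.106) or with total counts in place of TMM scaling (0.0560 and 0.0500387). Without untreated replicate 1, 21 vessel genes passed as higher and 1 as lower (18.7% of all genes, 14.8% higher and 3.96% lower). Without untreated replicate 2, 21 passed as higher and 2 as lower (22.5%, 18.1% and 4.44%).

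**Figure D3:**
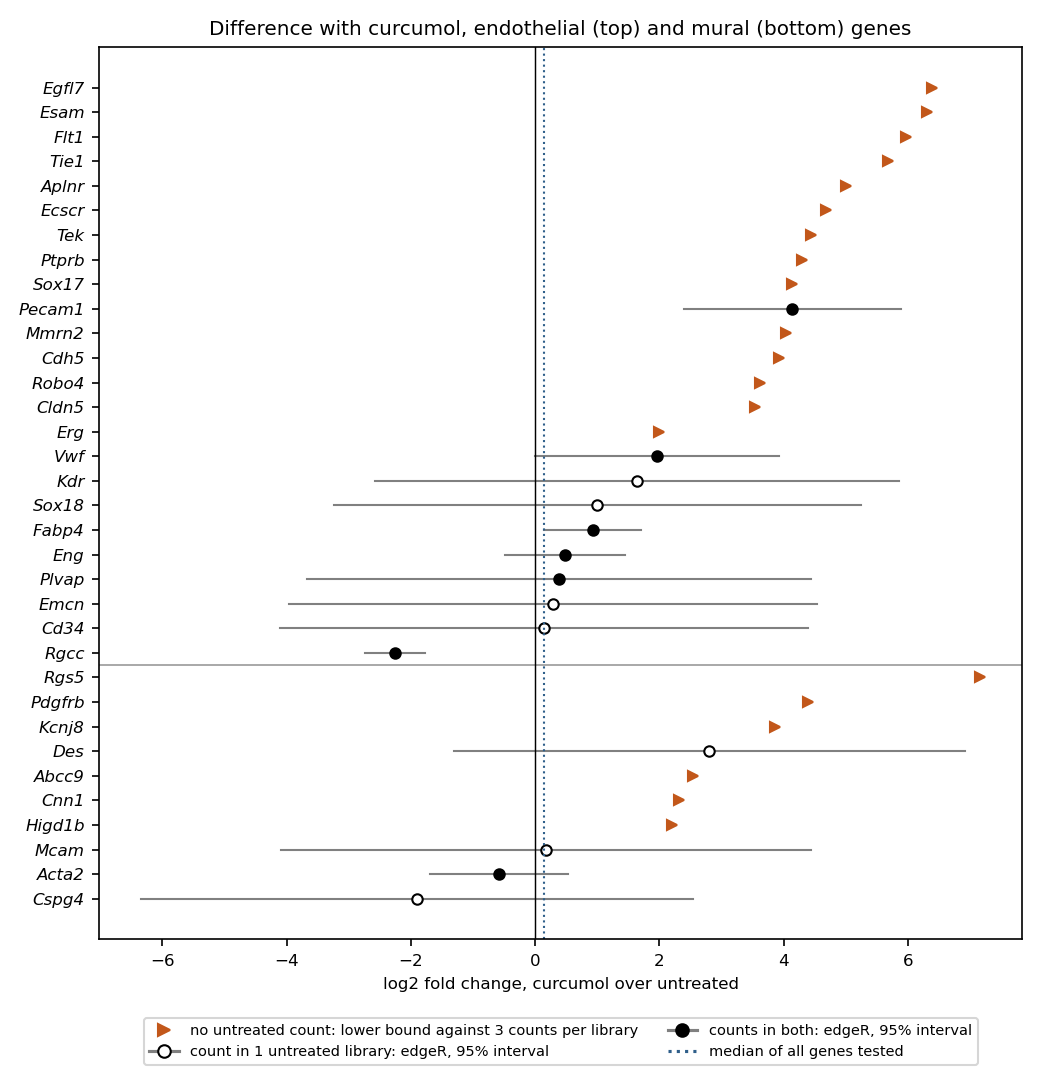
Log2 fold change, curcumol over untreated, of the 34 tested vessel genes, endothelial above the line and mural below it. Orange triangles are lower bounds against 3 counts per untreated library, circles with grey bars are edgeR estimates with 95% intervals (filled: counts in both untreated libraries; open: in 1), and the dotted line is the median of all genes, 0.15. Rgcc is the only gene whose interval lies wholly below 0, and the open circles have intervals several units wide.

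The endothelial receptors include those that vessels use to sense VEGF and angiopoietins. Flt1, VEGF receptor 1, stood at 5.16, 6.70 and 2.58 CPM with curcumol and was without counts in either untreated library, at least 63.0-fold higher (adjusted p = 0.0637). Kdr, VEGF receptor 2, stood at 4.95, 6.38 and 4.09 CPM with curcumol, against 0 and 3.30 CPM without (log2 difference 1.64 ± 1.75, SE; adjusted p = 0.641). The groups did not overlap for either receptor, but untreated replicate 2 came close to the curcumol range for Kdr. The Kdr estimate was 0.64 without untreated replicate 1 and 10.76 without replicate 2, its only untreated library with counts. Tie1, an orphan receptor that modulates angiopoietin signals, stood at 3.08, 5.27 and 3.36 CPM with curcumol and at 0 in the untreated libraries (adjusted p = 0.0637). Tek, which encodes the angiopoietin receptor TIE2, stood at 2.46, 1.61 and 0.892 CPM with curcumol and at 0 without (adjusted p = 0.0659). Untreated counts were also absent for Aplnr, the apelin receptor, Robo4, a guidance receptor that stabilises vessels, and Ptprb, the phosphatase VE-PTP that acts on TIE2 and VE-cadherin. Their mean levels were 2.45 ± 1.89, 0.936 ± 0.143 and 1.499 ± 0.457 CPM with curcumol (SD, n = 3). Of the 8 receptors, with Eng described below, none passed, and 6 had no untreated count.

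Junction and surface genes behaved in more than 1 way. Pecam1, the adhesion molecule CD31, stood at 6.62, 15.2 and 7.94 CPM in the curcumol libraries, against 0.583 and 0.537 CPM in the untreated libraries. It is the vessel gene with counts in both untreated libraries that differed most upward (4.14 ± 0.73, 95% interval 2.39 to 5.89). Its adjusted p was 0.0644, so it did not pass. Cdh5, VE-cadherin of the adherens junction (NCBI gene 12562), stood at 1.24, 1.43 and 0.822 CPM with curcumol and at 0 in the untreated libraries, at least 15.3-fold higher (adjusted p = 0.0659). The tight junction gene Cldn5 (0.621, 0.227 and 1.81 CPM), the immunoglobulin-type adhesion molecule Esam (4.09, 8.40 and 5.73 CPM) and the small surface protein gene Ecscr (1.77, 1.998 and 2.11 CPM) likewise had counts in the curcumol libraries and none in the untreated ones. Emcn, a sialomucin of capillaries and veins, was highest in untreated replicate 1: its 2.37, 2.07 and 1.62 CPM with curcumol lay between 3.29 and 0 CPM without. Cd34, a sialomucin shared with blood progenitors, showed the same arrangement, at 4.13, 3.995 and 6.03 CPM with curcumol, against 8.51 and 0 CPM without. For both, the sign turned without untreated replicate 2 (-0.69 and -0.83). Without replicate 1 neither had an untreated count left, and the estimates were 9.40 and 10.63. Plvap, a protein of endothelial fenestrae, varied most among curcumol libraries, at 1.003, 0.0227 (1 count) and 5.07 CPM, against 1.09 and 2.02 CPM without.

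The transcription factors were low throughout. Erg, an ETS factor that maintains endothelial identity, stood at 0.334, 0.227 and 0.352 CPM with curcumol (10 to 15 counts) and had no untreated count. Sox17, linked to arterial identity, stood at 0.956, 1.70 and 1.39 CPM with curcumol and at 0 without. Sox18, its relative in vascular and lymphatic development, was an exception, at 2.15, 2.22 and 3.31 CPM with curcumol, against 0 and 2.56 CPM without. The Sox18 estimate was 0.01 without untreated replicate 1 and 9.76 without replicate 2, its only untreated library with counts. Among the secreted products, Egfl7, which also hosts miR-126, stood at 4.30, 8.13 and 6.86 CPM with curcumol and at 0 without, at least 84.2-fold higher (adjusted p = 0.0593), and 7.37% of its exonic bases overlap Gm20532 in GENCODE M21. Mmrn2, a matrix protein of endothelium, averaged 1.25 ± 0.853 CPM with curcumol and also had no untreated count. Vwf, the platelet-binding glycoprotein, stood at 3.63, 2.66 and 5.63 CPM with curcumol, against 0.785 and 1.25 CPM without, and did not pass (1.96 ± 0.81, adjusted p = 0.204). The Vwf estimate was 1.67 and 2.36 without untreated replicates 1 and 2.

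The 3 endothelial genes with the highest curcumol CPM, Fabp4, Eng and Rgcc, are also known in macrophages, and they did not share a direction. Rgcc, a cell cycle regulator first described as a complement response gene (NCBI gene 66214), stood at 22.6, 20.5 and 22.6 CPM in the curcumol libraries, against 89.4 and 120 CPM in the untreated libraries. Its fall by 2.26 ± 0.20 on the log2 scale passed (95% interval -2.74 to -1.77, adjusted p = 0.0273), and the curcumol libraries differed from each other by 1.10-fold at most. Fabp4, a fatty acid-binding protein of capillaries, adipocytes and macrophages, stood at 33.8, 66.6 and 48.7 CPM with curcumol, against 23.9 and 28.4 CPM without (0.92 ± 0.32, adjusted p = 0.139). Eng, the TGF-beta co-receptor endoglin, overlapped between groups, at 53.7, 59.6 and 27.9 CPM with curcumol, against 24.7 and 42.8 CPM without (0.48 ± 0.40, adjusted p = 0.538). These genes set the summed endothelial level, which was 165, 223 and 163 CPM with curcumol, against 152 and 201 CPM without. Without them the sum over the other 21 genes was 55.2, 75.8 and 64.1 CPM with curcumol, against 14.3 and 9.67 CPM without. The 3 genes were left out after values were seen and include Rgcc, the only endothelial gene that was lower. This second sum is therefore a description and supports nothing.

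Among pericyte genes, Rgs5, a regulator of G protein signalling that is the usual marker of pericytes (NCBI gene 19737), was the highest. It stood at 8.12, 14.3 and 10.4 CPM with curcumol, or 340 to 628 counts, and was without counts in either untreated library, at least 143-fold higher (adjusted p = 0.0464). The PDGF-B receptor gene Pdgfrb stood at 1.41, 1.91 and 1.53 CPM with curcumol and at 0 without (adjusted p = 0.0651). Kcnj8 and Abcc9 encode the pore and the sulfonylurea receptor subunit of the vascular ATP-sensitive potassium channel, and both had counts with curcumol and none without. Kcnj8 averaged 1.11 ± 0.532 CPM and Abcc9 0.447 ± 0.307 CPM with curcumol (SD, n = 3). Higd1b, a pericyte-enriched mitochondrial gene, stood at 0.239, 0.295 and 0.517 CPM with curcumol and at 0 without. Notch3, the Notch receptor of mural cells, had 0, 18 and 8 counts with curcumol and none without, and was not tested. Cspg4, the proteoglycan NG2, stood at 1.03, 1.09 and 0.775 CPM with curcumol, against 7.22 and 0 CPM without, so its difference of -1.90 ± 1.84 rested on untreated replicate 1. The Cspg4 estimate turned positive without that library (8.34) and was -2.88 without replicate 2. Mcam, the adhesion molecule CD146, also had its highest and lowest values in the untreated libraries, at 2.65, 2.70 and 3.05 CPM with curcumol, against 4.97 and 0 CPM without. The Mcam estimate was 9.88 without untreated replicate 1, its only untreated library with counts, and its sign turned without replicate 2 (-0.80). All 3 mural genes with counts in 1 untreated library had them in replicate 1, and no pericyte gene had a count in untreated replicate 2.

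The contractile genes did not move as a set. Acta2, smooth muscle actin, stood at 9.32, 11.9 and 21.1 CPM with curcumol, against 27.0 and 15.2 CPM without (-0.58 ± 0.46, adjusted p = 0.510), and the groups overlapped. It was the only mural gene with counts in both untreated libraries. Des, the intermediate filament gene desmin of muscle cells and pericytes, stood at 7.21, 9.99 and 18.5 CPM with curcumol, against 3.40 and 0 CPM without (2.81 ± 1.70, adjusted p = 0.377). The Des estimate was 1.83 without untreated replicate 2 and 11.96 without replicate 1, its only untreated library with counts. Cnn1, calponin, stood at 0.239, 0.522 and 0.376 CPM with curcumol and at 0 without (adjusted p = 0.0787). The other contractile genes, Myh11 and Tagln, were at or near 0 in all 5 libraries. Myh11, smooth muscle myosin, had 3, 8 and 0 counts with curcumol, Tagln had 1, 0 and 0, and neither had an untreated count. Of the exonic bases of Tagln 5.43% lie opposite exons of Pcsk7 in GENCODE M21, and those of Myh11 overlap no other protein-coding gene. Of the 5 contractile genes, Acta2, Des and Cnn1 thus had counts in all 3 curcumol libraries. The sum over all 13 mural genes overlapped between groups, at 31.2, 45.4 and 58.1 CPM with curcumol, against 42.6 and 15.2 CPM without.

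Levels between genes were compared per kilobase of the longest coding transcript. On this scale of mean CPM per kb in the curcumol libraries, the endothelial order ran Fabp4 (55.5), Rgcc (23.9), Eng (13.8), Egfl7 (4.62), Esam (3.26) and Pecam1 (2.88), and ended with Robo4 (0.189), Ptprb (0.126) and Erg (0.0937). In the untreated libraries Rgcc led at 114 CPM per kb, followed by Fabp4 at 29.2 and Eng at 9.87, and no other endothelial gene exceeded 1.67. The mural order in the curcumol libraries ran Acta2 (6.93), Des (3.93), Rgs5 (2.67), Mcam (0.937) and Higd1b (0.476), and Acta2 stood at 10.4 CPM per kb without curcumol. The spread among the curcumol libraries was set beside that of other genes. The highest library exceeded the lowest by a median of 1.89-fold over the endothelial genes. The median was 2.17-fold over the 10 mural genes with counts in all 3, beside 1.91-fold over 5058 genes averaging 0.5 to 10 CPM. Among the vessel genes, Eng, Fabp4, Rgcc and Acta2 averaged above that range, and Erg, Abcc9, Cnn1 and Higd1b below it. Curcumol replicate 2 was highest for 12 of 24 endothelial genes, and replicate 1 was lowest for 8 of the 10 mural genes. The ranges over the 3 curcumol libraries overlapped for 20 of 23 neighbouring pairs in the endothelial order and 6 of 9 in the mural order. The separate endothelial pairs were Fabp4 and Rgcc, Rgcc and Eng, and Eng and Egfl7, and the separate mural pairs were Rgs5 and Mcam, Mcam and Higd1b, and Pdgfrb and Cnn1.

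**Figure D4:**
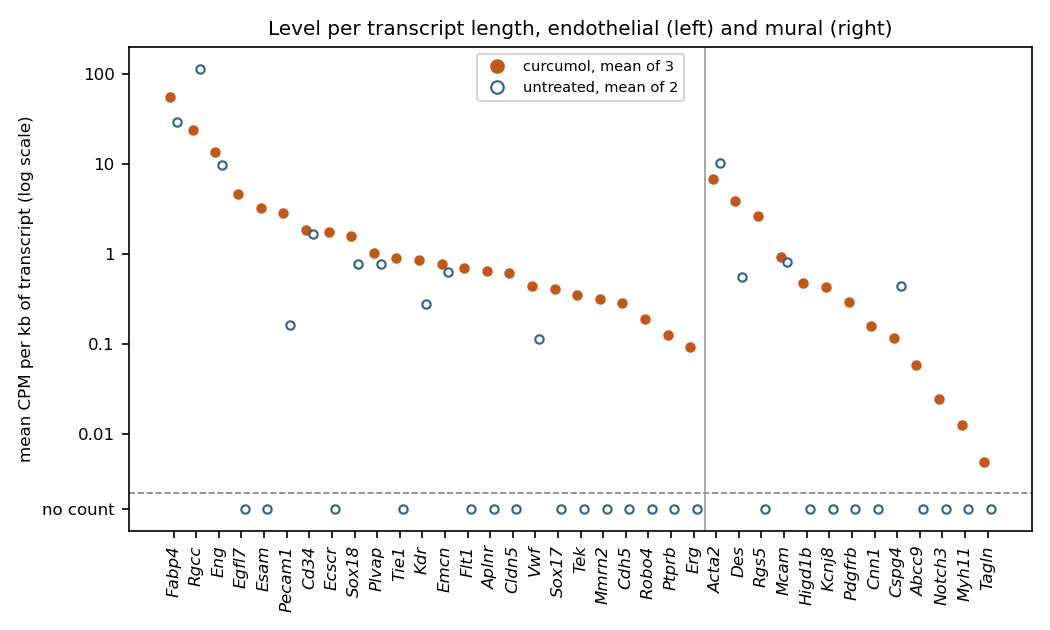
Mean CPM per kilobase of transcript on a log axis for each vessel gene, ordered by the curcumol level, endothelial genes left of the line and mural genes right of it. Orange points are means of 3 curcumol libraries and open blue points means of 2 untreated libraries, with means of 0 below the dashed line. Rgcc, Acta2 and Cspg4 are the genes with the blue point above the orange one.

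Promoter windows, 250 bases before to 50 after a start site, were available from RefSeq (GRCm38.p6) for 21 of the 37 genes, in 25 windows. They are shown for the 2 genes that passed the test, Rgs5 (chr1:169655251-169655550, plus strand) and Rgcc (chr14:79301586-79301885, minus strand), for 2 genes without untreated counts, Egfl7 (chr2:26580833-26581132, plus strand) and Robo4 (chr9:37401722-37402021, plus strand), and for Cd34 (chr1:194938571-194938870, plus strand), which was highest in an untreated library. Capitals mark an ETS-type motif, CAGGAAG or CCGGAAG on either strand, the kind of site that Erg and its relatives bind.
Rgs5: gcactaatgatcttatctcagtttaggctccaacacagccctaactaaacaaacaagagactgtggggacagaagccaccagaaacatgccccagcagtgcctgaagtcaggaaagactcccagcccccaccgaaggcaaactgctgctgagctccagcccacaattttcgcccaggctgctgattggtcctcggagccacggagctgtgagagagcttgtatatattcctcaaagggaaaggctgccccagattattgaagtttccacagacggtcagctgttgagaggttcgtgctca
Rgcc: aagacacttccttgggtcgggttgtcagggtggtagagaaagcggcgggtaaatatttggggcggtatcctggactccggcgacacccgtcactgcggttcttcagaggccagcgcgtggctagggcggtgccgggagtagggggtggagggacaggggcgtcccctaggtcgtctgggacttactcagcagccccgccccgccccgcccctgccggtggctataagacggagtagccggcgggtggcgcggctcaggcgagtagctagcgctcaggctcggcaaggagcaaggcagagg
Egfl7: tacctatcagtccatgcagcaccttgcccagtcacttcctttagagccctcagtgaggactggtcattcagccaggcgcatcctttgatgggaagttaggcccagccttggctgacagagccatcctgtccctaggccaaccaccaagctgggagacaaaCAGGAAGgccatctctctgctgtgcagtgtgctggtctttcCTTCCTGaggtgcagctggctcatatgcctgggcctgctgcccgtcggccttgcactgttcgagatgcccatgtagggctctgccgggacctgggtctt
Robo4: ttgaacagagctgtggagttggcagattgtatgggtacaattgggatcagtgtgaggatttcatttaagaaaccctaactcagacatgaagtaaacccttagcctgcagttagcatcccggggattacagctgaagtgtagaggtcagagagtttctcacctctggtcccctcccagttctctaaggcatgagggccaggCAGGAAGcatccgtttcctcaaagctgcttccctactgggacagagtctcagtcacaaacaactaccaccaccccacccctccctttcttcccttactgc
Cd34: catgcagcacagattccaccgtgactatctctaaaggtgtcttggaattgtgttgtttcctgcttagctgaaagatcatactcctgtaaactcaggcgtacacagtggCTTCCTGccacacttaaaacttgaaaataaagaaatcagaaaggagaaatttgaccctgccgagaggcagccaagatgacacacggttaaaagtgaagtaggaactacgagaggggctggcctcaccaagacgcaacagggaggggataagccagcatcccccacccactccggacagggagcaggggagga
Counted from the start site, the motif began at -90 and -49 in Egfl7, at -50 in Robo4 and at -142 in Cd34, and these letters are not in the Rgs5 and Rgcc windows. Over the vessel genes it was found in 6 of 25 windows, of Cd34, Egfl7, Emcn, Erg and Robo4, beside 20.9% of all 32851 promoter windows. A strict CArG box, the site of serum response factor in smooth muscle genes, was in none of the 25 windows and in 1.63% of all windows. The 3 genes with the motif that lacked untreated counts, Egfl7, Erg and Robo4, stood beside Cd34 and Emcn, which had them in untreated replicate 1.

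Other vascular genes, taken from lists written for comparison, were read beside them. Of 22 tested among 24 further pan-endothelial genes, none passed. Of the 22, 10 had no untreated count, so those passed the filter on low counts through their curcumol libraries alone. Higher without overlap of libraries were 14 of the 22, beside 29.5% of all genes. The 14 include all 10 without an untreated count, so this number supports nothing for those 10. Among them was Podxl, a sialomucin of the luminal surface, at 3.03, 2.72 and 3.01 CPM with curcumol and 0 without. Ramp2, the adrenomedullin co-receptor, was another, at 1.94, 3.86 and 2.44 CPM with curcumol and 0 without. Ushbp1 and Tal1, a transcription factor shared with blood cells, were at least 43.2-fold and 14.3-fold higher with curcumol against no untreated count (adjusted p = 0.0651 and 0.0659). Of 12 capillary genes 11 were tested and none passed, with Tcf15, a transcription factor of cardiac capillaries, at 3.32, 2.02 and 1.17 CPM with curcumol and 0 without. Timp4, an inhibitor of matrix metalloproteinases, Btnl9 and Rbp7, a retinol-binding protein, also had no untreated count, with lower bounds of 47.7-fold, 15.1-fold and 14.2-fold. The arterial genes (7 tested of 10) and venous genes (5 tested of 8 listed) had no calls either. Dll4, the Notch ligand of arterial and tip cells, stood at 1.24, 1.68 and 0.376 CPM with curcumol and 0 without, and Vcam1, a leukocyte adhesion molecule, at 54.7, 124 and 43.3 CPM, against 0.735 and 11.7 CPM without (adjusted p = 0.112). Fbln5, an elastic fibre protein, and Hey1, a Notch target, were at least 71.3-fold and 14.7-fold higher with curcumol against no untreated count (adjusted p = 0.0637 and 0.0956). Bmx, a tyrosine kinase, stood at 2.34, 3.18 and 3.66 CPM with curcumol, against 0.431 and 0.0767 CPM without (adjusted p = 0.109). Of the venous genes, Ephb4, an ephrin receptor, stood at 1.17, 1.95 and 0.681 CPM, against 0 and 0.0256 CPM without, Mgp had an adjusted p of 0.225 and Vwa1 of 0.685. Among lymphatic genes, Lyve1, which resident macrophages also express, stood at 431, 388 and 92.7 CPM with curcumol, against 82.6 and 104 CPM without, and the groups overlapped. Pard6g, Flt4, which is VEGF receptor 3, and Ccl21a, a chemokine, had no untreated count, with lower bounds of 6.68-fold, 4.13-fold and 4.53-fold, and none of the 5 lymphatic genes tested passed. Of 8 endocardial genes 2 were tested, Cgnl1 and the neuregulin gene Nrg1, and neither passed (adjusted p = 0.570 and 0.653).

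A further list held ligands, receptors and target genes of the VEGF, angiopoietin, apelin, Notch, PDGF and TGF-beta pathways. Of its 27 tested genes 1 fell and none rose. Over all genes tested, 0.138% fell and 0.0689% rose at the same threshold. Vegfa, the ligand of Flt1 and Kdr, stood at 5.90, 8.47 and 6.25 CPM with curcumol, against 58.4 and 63.5 CPM without (-3.15 ± 0.26, adjusted p = 0.0229). Pdgfd, a ligand of the PDGF receptor beta, stood at 1.17, 1.70 and 0.986 CPM with curcumol and 0 without (adjusted p = 0.0659). The Notch ligand gene Jag2 likewise had no untreated count (adjusted p = 0.0754), and Flt1 and Kdr did not pass, as given above. Of 18 tested among 28 further mural genes none passed, and the smallest p belonged to Steap4, a metalloreductase, at 23.5, 9.04 and 9.67 CPM with curcumol and 0 without (adjusted p = 0.0523). Vtn, vitronectin, which brain pericytes express, followed at 1.12, 0.726 and 0.235 CPM with curcumol and 0 without. Heyl, a Notch target of mural cells, and Itga7, an integrin of muscle, were at least 11.8-fold and 8.66-fold higher with curcumol against no untreated count (adjusted p = 0.0880 and 0.0884).

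Marker lists of other cell types were summed beside the vessel genes, and fibroblast and neutrophil lists held the genes that passed. The summed level of 15 fibroblast genes was 740 to 904 CPM with curcumol, against 462 and 592 CPM without. Beside 0.0689% of all genes tested, 2 of the 15 rose. These were Lum, the matrix proteoglycan lumican, at 9.13, 9.53 and 14.8 CPM with curcumol and 0 without, and Dcn, decorin, at 66.2, 52.6 and 83.5 CPM, against 13.8 and 12.2 CPM. The 15 cardiomyocyte genes summed to 100 to 128 CPM with curcumol, against 28.7 and 58.9 CPM without, and none of 12 tested passed. Myl3, a myosin light chain, had 9.36, 8.47 and 10.03 CPM with curcumol, against 0.101 and 0 CPM without, and Actn2 had no untreated count. Neutrophil genes summed to 1512 to 3535 CPM with curcumol, against 358 and 498 CPM without, and 2 of 11 rose, Ngp and Camp, beside the same 0.0689%. Lum and Camp had no untreated count, so both passed the filter on low counts through their curcumol libraries alone. For B cell genes the sums were 79.1 to 230 CPM with curcumol, against 38.8 and 54.7 CPM without, and for T and NK cell genes 66.6 to 129 CPM, against 52.3 and 67.2 CPM. Platelet sums overlapped, at 899.6 to 1192 CPM with curcumol, against 1028 and 1063 CPM without. The erythroid sum was lower, at 12.9 to 25.4 CPM, against 37.5 and 80.2 CPM. Of the erythroid genes tested 4 were lower and 1 was higher. The higher one was Alas2, at 1.03, 0.182 and 0.423 CPM with curcumol and 0 without. None of the 6 B cell, 10 T and NK cell, 8 platelet and 5 erythroid genes tested passed. The smallest adjusted p in these lists belonged to Cd79a (0.0768) and Pax5 (0.0798), to Ncr1 (0.143) and Nkg7 (0.359), to Gp1ba (0.0768) and Gp5 (0.165), and to Hba-a1 (0.0808) and Alas2 (0.0843). Mesothelial genes were at 0.645 to 2.49 CPM with curcumol, against 2.31 and 0 CPM without, with none of 3 tested past the threshold (Wt1 0.160 and Msln 0.202).

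The macrophage markers dominated every library. Their sum over 12 genes was 31038 to 36895 CPM with curcumol, against 39809 and 39607 CPM without, and none passed. Fcgr1, which encodes CD64, stood at 329, 300 and 249 CPM with curcumol, against 349 and 373 CPM without (adjusted p = 0.342). Ptprc, which encodes CD45, stood at 443, 456 and 297 CPM, against 321 and 260 CPM without (adjusted p = 0.297). Csf1r, the receptor for macrophage growth factors, had an adjusted p of 0.285. Cd14 (1733, 1128 and 1755 CPM with curcumol, against 3754 and 3698 CPM without) and Cd68 (2061, 1731 and 2027 CPM, against 3670 and 3171 CPM) had adjusted p of 0.0644 and 0.0659. The part of other cell types in the vessel gene results was not tested.

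**Figure D5:**
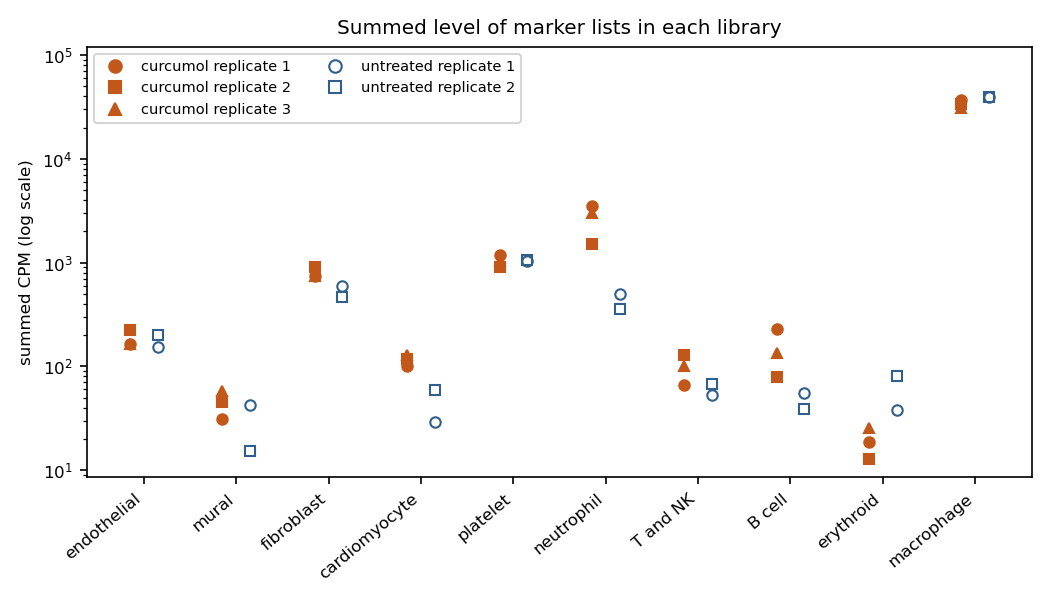
Summed CPM of each marker list in every library, on a log axis, with the 3 curcumol libraries (orange, left) beside the 2 untreated libraries (blue, right). The macrophage sum lies at or above 31038 CPM in every library, the endothelial sums overlap between groups, and the neutrophil, fibroblast and cardiomyocyte sums are higher with curcumol in every library.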

How the data were processed

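Gene-level counts from 5 libraries were analysed, 3 with curcumol and 2 untreated, each column tied to its sample by title. The authors deposited whole-number counts per gene without normalization. The submitters' processing notes name fastp, Bowtie2, HISAT2 and HTSeq. Their versions, the genome build and the strand setting: not given in the sources used here. The library kit is named as VAHTS in the labels' protocols and as TruSeq Stranded in the series' design text, so whether reads of overlapping antisense genes were told apart is unsettled. Every pair of libraries differed by more than sampling noise (chi-square per gene 101 to 371). Replicates may be technical, and p-values then cover the spread among these libraries alone.

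The groups were compared in edgeR 4.0.16 (R 4.3.3): filterByExpr (minimum count 10), TMM factors, quasi-likelihood tests of the group term, two-sided, with Benjamini-Hochberg adjustment over all genes tested and 0.05 as the threshold. The fits were checked on simulated data. SE is the log2 difference divided by the square root of F, and intervals are at 95%. Floors and bounds cover counting error only. Alternatives were RLE factors, total counts, DESeq2 1.42.0, limma-voom (limma 3.58.1), other filters, a replicate block and leaving out each library. Transcript lengths and exon overlaps, the latter with protein-coding genes only, come from GENCODE M21, and promoters from RefSeq GRCm38.p6. Gene names and numbers are those of the deposited table. The 37 genes and the lists were chosen with earlier results of these data known. All 37 are named, with the 4 genes of smallest p of each other vascular list (2 of other lists), the gate genes and Vegfa. The printed promoter windows, and the endothelial sum without its 3 highest genes, were chosen after values were seen. Replicate numbers were not used to pair the samples in the main fit. Deviations from group means of same-numbered libraries correlated at 0.03 and -0.03. With 2 untreated libraries their deviations mirror each other, so these values cannot exclude pairing.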

Additional observations from a re-analysis of the deposited data

How the results depend on the processing

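Over all genes 30 passed, against 10 with total counts, 2397 with DESeq2, 1661 with limma-voom, 416 without a filter, 98 with a CPM of at least 1 in 2 samples, 45 with a replicate block and 0 to 3531 without single libraries. At an unadjusted p below 0.05 there were 2383 without curcumol replicate 2, where none passed. Of the endothelial genes 1 passed, against 0 with total counts, 16 with DESeq2, 16 with limma-voom, 7 without a filter, 3 with the CPM filter, 0 with a replicate block and 0 to 18 without single libraries. Of the mural genes 1 passed, against 0 with total counts, 3 with DESeq2 and 6 with limma-voom. The number was 0 with a replicate block and without any single curcumol library. Fits without untreated replicate 1 or 2 leave an arm of 1 sample, assumed to vary like the others. The upper ends of the ranges over all genes and over endothelial genes come from such a fit and support nothing. The mural numbers leave these fits out.

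The endothelial median log2 difference was 7.59 with DESeq2, 5.94 with limma-voom, 8.43 with the CPM filter, 7.64 with a replicate block and 7.67 to 8.67 without single libraries. The mural median was 6.27 with DESeq2, 4.92 with limma-voom, 6.06 without a filter, 2.80 with the CPM filter, which tests fewer genes, 6.70 with a replicate block and 6.66 to 8.34 without single libraries. RLE factors changed no call. Fitted values of genes without untreated counts depend on the prior count. With total counts the median over all genes was 0.34 in place of 0.15.

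The sign turned for Plvap with limma-voom (-1.43), a replicate block (-2.96) and without curcumol replicate 3 (-1.60), for Cspg4 with limma-voom (1.66), a replicate block (1.53) and without untreated replicate 1 (8.34), for Cd34 without curcumol replicate 3 (-0.07) or untreated replicate 2 (-0.83), and for Emcn (-0.69) and Mcam (-0.80) without untreated replicate 2. Without single libraries these ranged from -1.60 to 0.97 (Plvap), -2.88 to 8.34 (Cspg4), -0.83 to 10.63 (Cd34), -0.69 to 9.40 (Emcn) and -0.80 to 9.88 (Mcam), and those of Kdr and Des, whose sign held, from 0.64 to 10.76 and from 1.83 to 11.96. The cause was not tested. With the replicate block, whose numbers are not known to pair the samples, Rgs5 (adjusted p = 0.196) and Rgcc (0.0860) did not pass. Where a gene had no untreated count, it was not detected in these libraries and is not shown to be absent.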
